A study of Mus musculus with 6 samples.

Results

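The comparison described here set 1 RNA sequencing library of mouse 3T3-L1 cells depleted of FTO against 1 library of its own control cells. Members were all genes counted at least 50 times in one of the libraries, which gave 11432 of the 37315 gene entries. Among those 11432 entries, 10853 were annotated as protein coding and 94 had no gene symbol, and no entry had a count of 0 in either library. The minimum of 50 reads left out 146 entries with 45 to 49 reads in the larger of their 2 counts and kept 103 with 50 to 54. 3T3-L1 is a line of embryo fibroblasts that serve as pre-adipocytes, which turn into fat-storing cells when given hormonal inducers. Per the labels, both libraries came from transiently transfected cells of this line, one labelled control and one labelled FTO knockdown, and both were read in paired-end mode with reads of 101 bp. The file headers put an "si" prefix before FTO in the knockdown column, and what the control cells received is not given in the sources used here. The rest of the study consists of METTL3 control and METTL3 knockdown cells of the same line, 2 libraries each, read in single-read mode, and these serve here as a yardstick for how far libraries of 1 group differ, which may be technical, since the labels do not say that they came from separate cultures. With 1 library on each side there is no test of the conditions and no replicate check of any difference below, and fewer cells of a kind and less RNA per cell cannot be told apart in such bulk samples.

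FTO is an iron- and oxoglutarate-dependent dioxygenase that removes methyl groups from adenosines in RNA, among them N6-methyladenosine (m6A) and the related mark beside the mRNA cap. m6A is written by a complex built around METTL3 and is read by YTH and IGF2BP proteins, and it is known to affect the splicing, stability and translation of transcripts. In the adipose lineage FTO is known for its part in body weight and in the conversion of pre-adipocytes into fat cells, a conversion that begins in cells rich in collagen, matrix proteins and the inhibitor DLK1.

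Fto was measured first because it checks the labels. Fto (ENSMUSG00000055932, GRCm38 chr8:91313525-91668439, plus strand) had 4484 reads in the control and 1413 in the knockdown. Scaled to a common library size (CPM after TMM scaling, where CPM is a gene's share of all counted reads, put on a common scale), that is 153 CPM against 48.5 CPM, a level 3.15-fold lower in the knockdown library with a 95% counting interval of 2.97 to 3.35. In the METTL3 libraries Fto stood between 133 and 149 CPM, close to the FTO control. The 7 other measured relatives of the AlkB dioxygenase family had log2 ratios (knockdown over control) from -0.50 for Alkbh7 to 0.38 for Alkbh1, and Alkbh5, which also demethylates m6A, stood at 110.0 CPM in the control and 108 CPM in the knockdown. None of the 8 measured genes near Fto on its chromosome passed 2-fold. Rpgrip1l, which faces Fto head to head, was at 26.9 and 20.8 CPM, and Irx3, a transcription factor gene linked to obesity variants within FTO, was at 6.20 and 6.79 CPM.

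Fibroblast markers were abundant in both libraries, and many defining markers of other cell types were at or near 0. Col1a1, which encodes a chain of the main fibrillar collagen, was at 2084 CPM in the control and 1132 CPM in the knockdown, and Pdgfra, a receptor that marks mesenchymal progenitors, was at 499.5 and 247 CPM. The adipocyte hormone genes Adipoq and Lep had no read in either library, but other adipocyte markers were present. The list of 22 adipocyte markers summed to 1151 CPM in the control and 981 CPM in the knockdown, with Adipoq, Cfd and Lep at 0. Of the macrophage list, Adgre1 and Tyrobp were at 0 and the summed level of its 9 genes was 23.5 CPM against 22.5 CPM. Epithelial and neural lists summed to 0.681 and 2.59 CPM in the control and to 0.583 and 2.67 CPM in the knockdown, with 3 members of each at 0. The muscle list summed to 10.2 and 8.57 CPM with Myod1, Myog, Myf5 and Ckm at 0, and the osteoblast and cartilage list to 2.38 and 1.92 CPM with Acan at 0. The libraries held 29321128 and 28348179 counted reads, against 41773967 to 44580722 in the METTL3 libraries. Mitochondrially encoded genes took 4.14% of reads in the control and 3.90% in the knockdown, against 0.605% to 0.757% in the METTL3 libraries.

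Which direction held more genes past 2-fold depended on the read minimum. With at least 50 reads, at least 2-fold lower were 152 genes (1.33% of the members) and at least 2-fold higher 95 genes (0.831%). With a minimum of 20 reads the order turned, with 238 lower and 248 higher, and with no minimum it was 2200 lower and 3233 higher, whereas with 200 reads it was 85 lower and 38 higher. The whole 95% counting interval lay past 2-fold for 64 lower genes (0.56%) and 30 higher genes (0.262%). Between the 2 METTL3 control libraries, genes counted at least 50 times were at least 2-fold lower in library 2 in 133 cases (1.14%) and higher in 59 (0.504%). Between the 2 METTL3 knockdown libraries the counts were 99 (0.841%) and 51 (0.433%). Counted in this way, each comparison over its own genes, the FTO share was the larger in both directions. Among FTO members alone, the METTL3 control pair had 57 genes lower and 53 higher of 10963, and the METTL3 knockdown pair 40 lower and 38 higher of 10969. The FTO libraries had 152 lower and 95 higher of all 11432 members. Of these, 8 of the lower and 63 of the higher were too weakly counted for at least 1 METTL3 pair. Without those genes the FTO share was still the larger in the lower direction but not in the higher.

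To set the spread aside gene by gene, a gene was taken as beyond it where it passed 2-fold in FTO and was under 2-fold in both METTL3 pairs. Of the 10926 genes measured in all 3 comparisons, 132 (1.21%) were lower in the FTO knockdown beyond the spread and 27 (0.247%) were higher. A further 71 genes past 2-fold, 63 of them higher, were too weakly counted in the METTL3 libraries to be judged in this way. Of the 132 lower genes, 97 (73.5%) were also lower in METTL3 library 2 than in library 1 of both groups, against 34.8% of all 10926 genes. Their median log2 ratios in those pairs were -0.25 in the controls and -0.34 in the knockdowns, so part of the lower set varied in the same direction, by less, between libraries of 1 group. Of the 27 higher genes, 11 (40.7%) were positive in both METTL3 pairs, against 40.1% of all. The median log2 ratio of all 11432 members was -0.015, and 52.2% of them were below 1 in ratio. That median changed sign with the scaling, being 0.0300 on the deposited RPKM values.

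**Figure D1:**
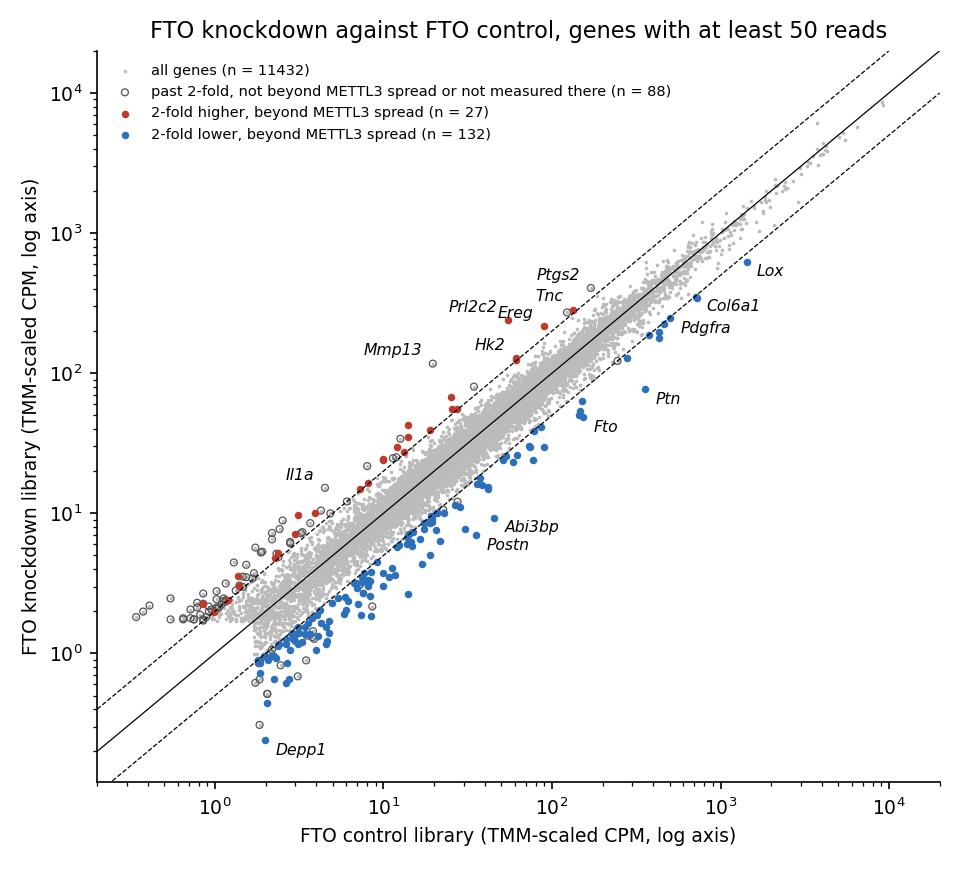
Level of each of 11432 genes in the FTO control library (horizontal axis, TMM-scaled CPM, log axis) and the FTO knockdown library (vertical axis, TMM-scaled CPM, log axis). Dashed lines mark 2-fold, red points the 27 genes higher and blue points the 132 genes lower beyond the METTL3 replicate spread, and open circles the 88 other genes past 2-fold, which lie mostly above the upper line at low levels.

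**Figure D2:**
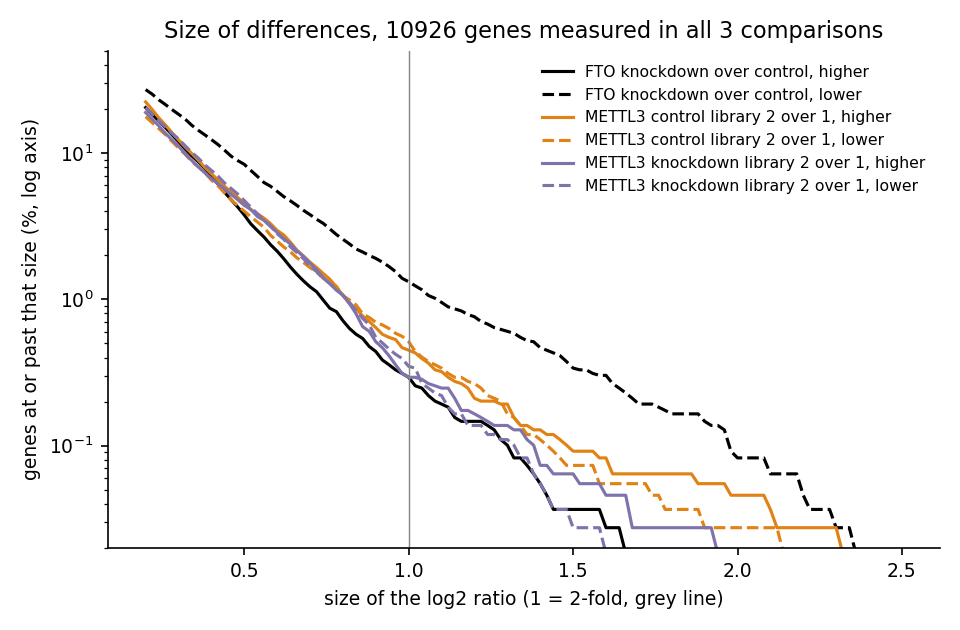
Share of 10926 genes (vertical axis, %, log axis) whose log2 ratio is at least as large as the value on the horizontal axis, by direction, for FTO knockdown over control and for the METTL3 pairs of 1 group. At 2-fold the dashed black line (genes lower in the FTO knockdown) is above all others.

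Weakly counted genes made up much of the total. Of genes with 50 to 199 reads in the larger of their 2 counts, 7.32% were past 2-fold in FTO, against 6.69% and 5.50% in the METTL3 control and knockdown pairs. Of genes with 1000 or more reads, 15 were higher and 32 lower, together 0.794% of 5923, against 0.589% and 0.307% in the METTL3 pairs. Genes past 1.5-fold numbered 663 lower and 387 higher in FTO, against 299 and 363 between METTL3 controls and 338 and 346 between METTL3 knockdowns. Nearest to the 2-fold threshold were Gm12138 inside it (6.06 to 12.1 CPM, ratio 2.003) and Spata5l1 outside it (1.57 to 3.12 CPM, ratio 1.99), and on the lower side Bnc2 inside (19.1 to 9.57 CPM, ratio 0.4999) and Usp11 outside (36.9 to 18.5 CPM, ratio 0.502). Of the 247 genes past 2-fold, 216 were protein coding, 13 were pseudogenes, 10 lncRNAs and 6 snoRNAs, and 2 had no symbol.

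Several of the named lower genes encode secreted and matrix proteins. Ptn, which encodes the heparin-binding growth factor pleiotrophin, was at 357 CPM in the control and 76.9 CPM in the knockdown, 4.64-fold lower (counting interval 4.44 to 4.86). It was higher still in the METTL3 libraries, from 945 to 1612 CPM. Postn, which encodes the matricellular protein periostin, was at 35.6 and 6.996 CPM, 5.09-fold lower (4.37 to 5.94). Both ranges are far from 1, and in neither case did the FTO libraries reach any METTL3 library, where Postn ranged from 133 to 202 CPM.

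Other matrix genes at the head of the same ranking encode proteins that bind collagen or cells. Abi3bp, a matrix protein, was at 45.3 CPM in the control and 9.33 CPM in the knockdown (log2 ratio -2.28). Dpt, which encodes dermatopontin, a partner of decorin, was at 14.0 and 2.64 CPM (log2 ratio -2.41), and Sparcl1, a relative of the matricellular protein SPARC, at 76.8 and 24.1 CPM (log2 ratio -1.67). Hmcn1, a very large matrix protein, was at 4.53 and 1.17 CPM (log2 ratio -1.96, interval -2.55 to -1.41).

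Small leucine-rich proteoglycans, which coat collagen fibrils and set their thickness, had the lowest median of all gene lists compared. All 6 measured members of the list were below 1 in ratio, 3 of them more than 2-fold, with a median log2 ratio of -1.46 beside -0.15 and -0.35 in the METTL3 pairs. That median was -0.96 with a minimum of 20 or 200 reads. Ogn, osteoglycin, was at 30.6 CPM in the control and 7.78 CPM in the knockdown, against 16.0 to 19.5 CPM in the METTL3 libraries. Aspn, asporin, its neighbour on chromosome 13, was at 17.0 and 4.36 CPM, and Fmod, fibromodulin, at 2.04 and 0.446 CPM. For Ogn and Aspn the FTO control was above every METTL3 library and the FTO knockdown below every one. The most abundant members differed little: Bgn, biglycan, was at 2983 and 2638 CPM (log2 ratio -0.18) and Dcn, decorin, at 95.3 and 83.6 CPM.

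Collagen chains followed the same direction with smaller ratios. Of 17 measured collagen genes, 16 were below 1 in ratio, 3 were more than 2-fold lower, and the median log2 ratio was -0.54, beside -0.25 and -0.21 in the METTL3 pairs. Col6a1 and Col6a2, which encode chains of the beaded-filament collagen VI, were at 718 and 375 CPM in the control and 350.5 and 186 CPM in the knockdown, 2.05-fold and 2.02-fold lower. Col11a1, a chain that nucleates fibrils, was at 8.34 and 2.57 CPM. The fibrillar chains Col1a1 and Col1a2 were 1.84-fold and 1.72-fold lower, Col1a2 at 2876 CPM in the control and 1676 CPM in the knockdown. Basement membrane collagen differed less: Col4a1 was at 1083 and 1065 CPM. In the METTL3 libraries the collagen list summed to between 27958 and 33721 CPM, against 10409 CPM in the control and 7053 CPM in the knockdown of FTO.

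Enzymes that cross-link and cut the matrix held both directions. Lox, which encodes the lysyl oxidase that cross-links collagen and elastin, was at 1429 CPM in the control and 626 CPM in the knockdown, 2.28-fold lower (2.24 to 2.32). It ranged from 1715 to 1980 CPM in METTL3 controls and from 713 to 1010 CPM in METTL3 knockdowns. Adamts1, a secreted protease, was at 728 and 343 CPM, and Mmp14, a membrane-bound collagenase, at 335 and 187 CPM. Of 16 measured metalloproteinases and inhibitors, 11 were below 1 in ratio, 2 of them more than 2-fold (Adamts1 and Mmp9), and the median log2 ratio was -0.50, while Mmp13 and Mmp3 went the other way, as given below.

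Some surface proteins of stromal cells were more than 2-fold lower, while the list of pre-adipocyte and mesenchymal surface markers was mixed. Cd248, endosialin, a glycoprotein of stromal cells, was at 144 CPM in the control and 50.5 CPM in the knockdown, 2.85-fold lower (2.68 to 3.03), against 761 to 906 CPM in the METTL3 libraries. Scara5, a ferritin receptor, was at 21.6 and 6.38 CPM, against 171 to 355 CPM there, and Islr, also known as meflin, a marker of mesenchymal stromal cells, was at 18.9 and 5.04 CPM, against 96.1 to 127 CPM. These 3 genes are not on that list. Of its 11 measured genes, 7 were below 1 in ratio, 1 of them, Pdgfra, more than 2-fold, and the median log2 ratio was -0.44, or -0.24 with a minimum of 20 reads. Thy1 (216 to 134 CPM), Ly6a (161 to 107 CPM) and Vcam1 (155 to 98.6 CPM) were lower by less, whereas the adhesion receptors Cd44 (269 to 338 CPM) and Alcam (70.5 to 94.1 CPM) were higher.

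**Figure D3:**
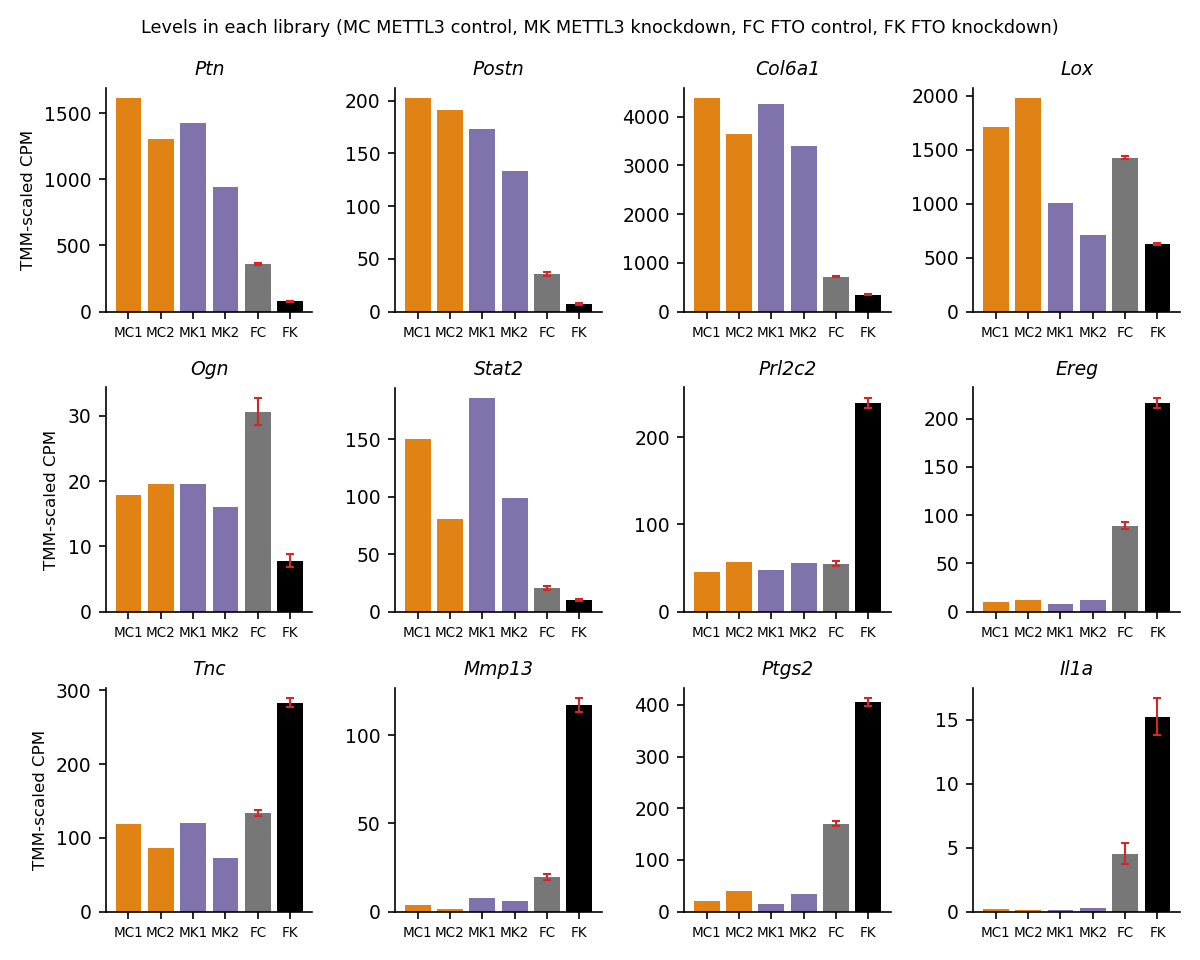
Level of 12 genes in every library of the study (vertical axes, TMM-scaled CPM, each from 0), with METTL3 control (MC), METTL3 knockdown (MK), FTO control (FC) and FTO knockdown (FK) on the horizontal axis. Red bars are 95% counting intervals of the single FTO libraries; Ogn brackets the METTL3 levels, Ptn, Postn, Col6a1 and Stat2 lie below them in both FTO libraries, and Tnc, Ereg, Mmp13, Ptgs2 and Il1a lie above them.

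Regulators of fat cell formation showed small ratios. No member of the list of 18 measured pro-adipogenic regulators passed 2-fold, and the median log2 ratio was -0.17, beside -0.03 and -0.16 in the METTL3 pairs. Pparg, the master regulator of the fat cell programme, was at 30.4 CPM in the control and 36.8 CPM in the knockdown, Cebpb at 76.6 and 72.4 CPM, and Cebpa at 3.30 and 2.26 CPM. Klf5 was the highest in ratio at 26.7 and 43.5 CPM and Stat5a the lowest at 63.3 and 36.3 CPM. Of 14 measured anti-adipogenic regulators, 13 were below 1 in ratio, none more than 2-fold, with a median log2 ratio of -0.30 beside 0.10 and 0.02 in the METTL3 pairs. Dlk1, which encodes the pre-adipocyte factor that holds back fat cell formation, was at 1681 and 1029.5 CPM, 1.63-fold lower, against 3427 to 4506 CPM in the METTL3 libraries. Klf2 was at 14.4 and 7.54 CPM.

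Of 12 measured adipocyte markers, 2 were more than 2-fold lower. Lpin1, a phosphatidate phosphatase of triglyceride synthesis, was at 35.8 CPM in the control and 16.3 CPM in the knockdown, against 23.2 to 24.2 CPM in all METTL3 libraries. Plin4, a lipid droplet protein, was at 245 and 122 CPM, a ratio that lay within the METTL3 spread, since it was 2-fold or more apart in both METTL3 pairs. Fabp4, a fatty acid carrier of fat cells, was at 46.3 and 41.5 CPM, and Plin2, another droplet protein, at 229 and 303 CPM. Of growth factor genes, Igf1 was at 10.8 and 3.50 CPM (3.10-fold lower, 2.47 to 3.91), against 7.35 to 9.80 CPM in the METTL3 libraries, while the receptors Igf1r (104 and 103 CPM) and Insr (89.7 and 87.4 CPM) had log2 ratios of -0.0013 and -0.04.

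Sterol synthesis genes were all lower, none of them past 2-fold. All 24 measured sterol genes were below 1 in ratio, 7 of them by more than 1.5-fold, with a median log2 ratio of -0.45. The same list had medians of -0.26 and -0.13 in the METTL3 pairs, so it was negative there too. Mvd and Mvk, enzymes of the mevalonate arm, were at 112 and 82.3 CPM in the control and at 58.0 and 42.8 CPM in the knockdown. Of 14 measured fatty acid synthesis genes, 13 were below 1 in ratio, and Acss2, which makes acetyl-CoA from acetate, was more than 2-fold lower at 22.99 and 10.1 CPM (log2 ratio -1.19).

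Interferon-stimulated genes were low in both FTO libraries and lower in the knockdown. Of 23 measured, 20 were below 1 in ratio and 3 more than 2-fold lower, with a median log2 ratio of -0.53. The METTL3 pairs had medians of -0.22 and -0.52 on this list, the second of them nearly as large as the FTO median. Stat2, the signal transducer of type I interferon receptors, was at 20.9 CPM in the control and 10.01 CPM in the knockdown, against 81.0 to 186 CPM in the METTL3 libraries. Ifit3 was at 7.25 and 3.09 CPM and its near copy Ifit3b at 1.84 and 0.652 CPM, and both were within the METTL3 spread. Their transcripts are 97.8% identical, so how reads were divided between them is uncertain. Ifi27l2a, another interferon-induced gene, was at 7.39 and 1.89 CPM (log2 ratio -1.97) and beyond the spread. Of 15 measured genes of class I antigen presentation, H2-Q4 (9.91 and 3.05 CPM) and Tap1 (4.94 and 2.30 CPM), a peptide transporter subunit, were more than 2-fold lower, while H2-D1 was at 139.8 and 184 CPM. H2-Q4 belongs to a family of near-identical genes, so its count is uncertain as well.

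Promoter windows of the pair Ifit3 and Ifit3b are shown because they hold the core of the element bound by interferon-activated factors, 2 times each, in a stretch the copies share. The windows run from 250 bases before to 50 bases after the start in RefSeq (GRCm38.p6), both on the plus strand of chromosome 19, at chr19:34583279-34583578 for Ifit3 and chr19:34607707-34608006 for Ifit3b. Capitals mark the core, which is GAAA, any 2 bases and GAAA again, as it reads on the other strand.
Ifit3: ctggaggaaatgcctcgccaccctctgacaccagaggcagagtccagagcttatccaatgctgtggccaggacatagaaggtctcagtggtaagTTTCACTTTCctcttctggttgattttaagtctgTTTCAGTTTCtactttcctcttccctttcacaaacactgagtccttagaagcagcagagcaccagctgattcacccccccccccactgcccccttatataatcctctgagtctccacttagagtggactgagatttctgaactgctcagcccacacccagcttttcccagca
Ifit3b: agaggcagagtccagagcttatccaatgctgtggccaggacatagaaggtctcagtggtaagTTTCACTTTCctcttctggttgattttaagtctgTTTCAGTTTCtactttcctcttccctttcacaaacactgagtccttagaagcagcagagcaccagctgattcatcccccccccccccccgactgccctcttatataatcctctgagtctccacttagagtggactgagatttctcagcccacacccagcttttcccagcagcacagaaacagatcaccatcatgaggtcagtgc
The 2 windows are 94.5% identical over 274 aligned bases. On either strand the core was in 9 of 158 windows (5.70%) of genes 2-fold lower, in 4 of 79 (5.06%) of genes 2-fold higher and in 2.92% of 11266 windows of all members, against 3.44% of 32851 windows in the whole table. Besides the pair, the lower genes with a match were the interferon-related Stat2, Irgm2 and Apol9a, the last with 2 overlapping windows, and Capn6, Gstt1 and Tnfrsf14. Higher genes with a match were Mmp13, Tenm4, Alpi and Maats1. Beyond the METTL3 spread the core was in 6 of 146 windows (4.11%) of lower genes and 1 of 23 (4.35%) of higher genes. A match is a description of these letters, not a bound site.

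Other lower genes came from several pathways. C3, the central complement protein, was at 432 CPM in the control and 179 CPM in the knockdown, 2.41-fold lower, against 1818 to 3404 CPM in the METTL3 libraries. Notch1, a receptor, was at 11.6 and 3.63 CPM, and Gas6, a ligand of the AXL receptor, at 146 and 54.04 CPM, while Axl itself was at 899 and 1000.3 CPM. Among 21 measured p53 target genes, Trp53inp1 was the 1 member past 2-fold, at 73.5 and 30.2 CPM, and Cdkn1a, the cell cycle inhibitor p21, was at 164 and 107 CPM. Adm, which encodes the vasodilator adrenomedullin, was at 38.2 and 16.0 CPM. Gsn, which encodes gelsolin, was at 964 and 612 CPM, 1.58-fold lower, against 1044 to 1255 CPM in the METTL3 libraries. Capn6, a calpain without protease activity, was at 90.0 and 29.6 CPM, and Ppp1r3c, a glycogen-targeting phosphatase subunit, at 8.48 and 1.85 CPM. Depp1, a target of FOXO factors, had the lowest log2 ratio of the named genes, -3.04, from 58 reads in the control and 7 in the knockdown, so that its interval ran from -4.42 to -1.91.

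**Figure D4:**
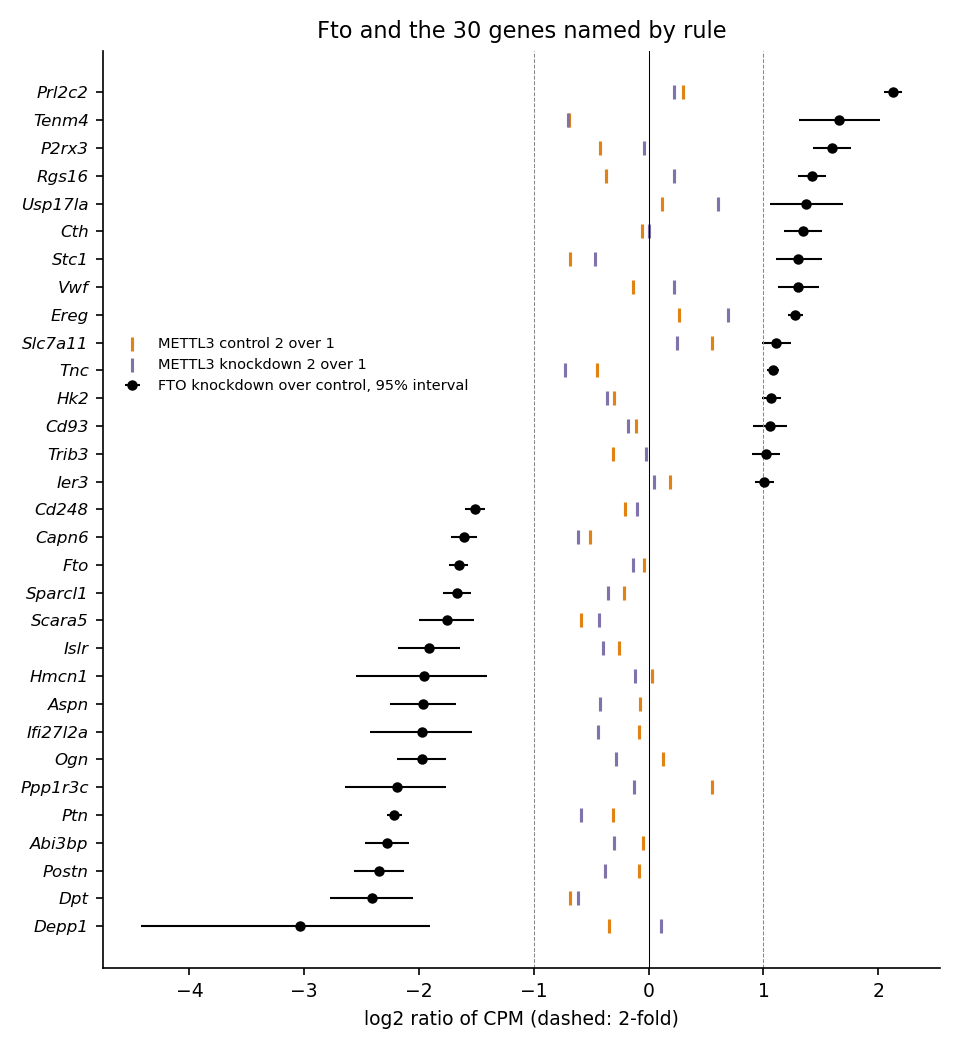
Log2 ratio of FTO knockdown over control (horizontal axis) for Fto and for the 15 higher and 15 lower genes with the largest ratio by the nearer bound of the interval, with points for the ratio and bars for the 95% counting interval. Coloured ticks give the ratio between the 2 METTL3 libraries of 1 group, which the choice of the 30 genes kept within 1 on either side of 0, and the FTO points run from -3.04 for Depp1 to 2.13 for Prl2c2.

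Of the named genes higher in the FTO knockdown, Prl2c2 had the highest log2 ratio, 2.13. Prl2c2, a proliferin, a growth-associated hormone of the prolactin family, was at 54.8 CPM in the control and 239 CPM in the knockdown, 4.36-fold higher (4.13 to 4.61). In the METTL3 libraries it stood at 45.9 to 56.6 CPM, level with the FTO control. Its near copy Prl2c3 was at 61.9 and 86.0 CPM and Prl2c5 at 0.851 and 2.67 CPM. The transcripts of Prl2c2 and Prl2c3 are 99.5% identical over 842 bp and those of Prl2c2 and Prl2c5 95.9%, so the division of reads among them is uncertain, while their sum was 118 CPM in the control and 328 CPM in the knockdown.

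Ligands and targets of growth factor signalling through ERK were higher as a group. Of 18 measured ERK feedback genes, 16 were above 1 in ratio, 6 of them by more than 1.5-fold and 1 by more than 2-fold, and the median log2 ratio was 0.43, beside 0.18 in both METTL3 pairs. Ereg, which encodes epiregulin, a ligand of the EGF receptor, was at 89.1 CPM in the control and 216 CPM in the knockdown, 2.42-fold higher (2.31 to 2.53), and both were above the 7.74 to 12.5 CPM of the METTL3 libraries. Hbegf, another ligand of that receptor, was at 22.5 and 37.8 CPM, Spry2, an inhibitor of the pathway, at 25.6 and 46.5 CPM, and Dusp5, an ERK phosphatase, at 21.96 and 35.4 CPM. Hmga2, a chromatin protein of growing mesenchymal cells, was at 771 and 1208 CPM, against 65.4 to 82.6 CPM in the METTL3 libraries. Spry1 went the other way, at 13.6 and 10.5 CPM. Rgs16, which switches off G protein signals, was at 25.3 and 67.9 CPM, 2.68-fold higher (2.46 to 2.92).

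Tnc, tenascin C, was the 1 matrix protein gene more than 2-fold higher among 24 measured matricellular and adhesive genes, of which 19 were below 1 in ratio. It was at 134 CPM in the control and 283 CPM in the knockdown, 2.12-fold higher (2.04 to 2.20), and the METTL3 libraries lay from 72.5 to 120.5 CPM, under both FTO libraries. Has2, which makes the matrix sugar hyaluronan, was at 13.2 and 27.2 CPM. Hk2, the hexokinase that commits glucose to glycolysis, was at 61.1 and 128 CPM, 2.09-fold higher (1.98 to 2.22). Of the 24 measured glycolysis and HIF1 genes, Hk2 included, 12 were above and 12 below 1 in ratio, with Hk2 alone more than 2-fold higher and Adm alone more than 2-fold lower, and Ldha was at 662 and 729 CPM. Stc1, a secreted glycoprotein, was at 9.88 and 24.4 CPM, and Ier3, an early response gene, at 61.5 and 124 CPM.

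Genes known from the vessel wall were higher, although other endothelial markers were near 0. Vwf, von Willebrand factor, was at 11.99 CPM in the control and 29.6 CPM in the knockdown (2.47-fold higher, 2.18 to 2.80), and Cd93, a surface glycoprotein of endothelial and myeloid cells, at 18.97 and 39.4 CPM. Selp, P-selectin, was at 12.6 and 34.0 CPM, against 0.268 to 0.821 CPM in the METTL3 libraries. The endothelial list of 8 genes summed to 13.01 CPM in the control and 31.1 CPM in the knockdown, nearly all of it Vwf. Its defining members were near 0, with Pecam1 at 5 and 7 reads, Cdh5 at 12 and 16, Kdr at 3 and 5 and Tie1 at 0 in both. P2rx3, an ATP-gated channel of sensory neurons, was at 14.1 and 42.5 CPM, and 51 bp of its exons overlap Ssrp1 on the opposite strand, so reads of the pair cannot be told apart if strand was not used. Tenm4, a teneurin adhesion protein, was at 3.10 and 9.77 CPM, and Usp17la, a deubiquitinase, at 3.92 and 10.1 CPM. The same limit holds for Tenm4, with 988 bp of exons overlapping C230038L03Rik on the opposite strand. Exons of other named genes, among them Hmcn1 (399 bp), Fto (304 bp), Rgs16 (236 bp) and Stc1 (229 bp), overlap an opposite-strand gene as well.

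Amino acid stress genes were higher with small ratios. Of 28 measured genes of the integrated stress response, in which the factor ATF4 turns on amino acid synthesis and transport, 24 were above 1 in ratio, 6 by more than 1.5-fold and 2 by more than 2-fold. Their median log2 ratio was 0.46, beside -0.09 and 0.06 in the METTL3 pairs and -0.015 over all members. Slc7a11, the cystine importer, was at 25.5 CPM in the control and 55.1 CPM in the knockdown (2.16-fold higher, 1.98 to 2.36), and Trib3, a pseudokinase induced by ATF4, at 27.4 and 55.8 CPM. Cth, which makes cysteine from cystathionine and was not on that list, was at 13.9 and 35.3 CPM (2.53-fold higher, 2.26 to 2.85). Asns, asparagine synthetase, was at 222 and 324 CPM, Mthfd2 at 87.2 and 143 CPM and Atf4 itself at 375 and 451 CPM. Ddit3, the stress factor CHOP, was at 48.4 and 47.3 CPM, and the chaperone Hspa5 at 654 and 677 CPM. In Slc7a11, Trib3 and Cth the METTL3 levels were near the FTO knockdown or above it, from 53.6 to 93.6 CPM for Slc7a11, 78.4 to 183 CPM for Trib3 and 34.7 to 43.9 CPM for Cth.

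The Slc7a11 promoter window (RefSeq, GRCm38.p6, chr3:50443564-50443863, minus strand, printed 5′ to 3′ along the gene) is shown because it holds the amino acid response element TGATGCAA 2 times, once on each strand, marked in capitals.
Slc7a11: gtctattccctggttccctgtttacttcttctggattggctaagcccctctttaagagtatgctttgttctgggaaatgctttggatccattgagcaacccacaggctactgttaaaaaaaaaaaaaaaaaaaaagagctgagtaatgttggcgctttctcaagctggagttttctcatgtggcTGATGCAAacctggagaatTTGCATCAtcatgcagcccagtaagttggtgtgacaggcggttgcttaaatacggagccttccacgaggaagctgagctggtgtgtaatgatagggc
Among windows of genes 2-fold higher, 2 of 79 (2.53%) held this element, those of Slc7a11 and Serpinb9c. It was in none of 158 windows of genes 2-fold lower, in 0.550% of the windows of all members and in 0.895% of the whole table.

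Inflammatory and matrix-degrading genes included the highest ratio given here. Mmp13, a collagenase, was at 19.6 CPM in the control and 117 CPM in the knockdown, 5.97-fold higher (5.46 to 6.53), from 576 and 3414 reads. It was not beyond the METTL3 spread, because it stood at 4.03 and 1.45 CPM in METTL3 controls 1 and 2, more than 2-fold apart, but no METTL3 library exceeded 7.71 CPM. Mmp3, stromelysin, a neighbour of Mmp13 on chromosome 9, was at 123 and 271 CPM (2.21-fold higher), and Ptgs2, the inducible enzyme of prostaglandin synthesis, at 170.0 and 405 CPM (2.39-fold higher). Both also differed 2-fold between the METTL3 controls, where Mmp3 was at 32.1 and 15.7 CPM and Ptgs2 at 19.8 and 39.8 CPM.

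Cytokine genes of the same kind were weakly expressed. Il1a, an alarm cytokine, was at 4.49 CPM in the control and 15.2 CPM in the knockdown (3.38-fold higher, 2.78 to 4.14), against at most 0.266 CPM in any METTL3 library. Lif, a cytokine of the interleukin 6 family, was at 4.26 and 10.5 CPM, Il6 at 2.79 and 6.24 CPM and Il11 at 1.02 and 2.43 CPM, the last from 30 and 71 reads. These 3 and Ptgs2 were the 4 genes more than 2-fold higher among 26 measured NF-kB targets, cytokines and chemokines. Of all members, 0.831% were at least 2-fold higher. Of those 26 genes, 16 were above 1 in ratio, with a median log2 ratio of 0.17. No gene of that list was higher beyond the METTL3 spread. Lif and Ptgs2 were within it, Lif differing by a log2 ratio of 1.15 between the METTL3 knockdowns. Il6 and Il11 were too weakly counted in at least 1 METTL3 pair. Il11 met the read minimum in the knockdown library only. Chemokines went both ways: Cxcl5 was at 361 and 623 CPM and Cxcl12, which holds stem and immune cells in stroma, at 957 and 566 CPM. Nfkbia, a feedback inhibitor of NF-kB, was at 75.8 and 68.7 CPM. Of Fos and Jun family genes, Fosl1 was at 118 and 196 CPM, Fos at 20.1 and 10.5 CPM and Jun at 95.9 and 64.4 CPM.

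The AP-1 site TGAGTCA, the element bound by Fos and Jun dimers, was in 11 of 79 windows (13.9%) of the genes 2-fold higher that matched the table, 60 of 94 by symbol. It was in 3.60% of the windows of all members, in 5.06% of those of genes 2-fold lower and in 5.20% of the whole table. These sets differ in read depth. Under 200 reads in the larger of their 2 counts were 57 of the 95 higher genes, 67 of the 152 lower genes and 1694 of all 11432 members. A gene could also meet the minimum of 50 reads through the knockdown alone. Whether the share of windows with this or another motif follows read depth was not tested. The windows with a match belonged to Mmp13, Mmp3, Il1a, Il6, Il11, Lif, Csrnp1, Atp13a4, Hmgcll1, Sdcbp2 and Sprr2d. In genes higher beyond the METTL3 spread it was in 1 of 23 windows (4.35%), that of Csrnp1, the other genes being within that spread or too weakly counted in the METTL3 libraries. A TATA box, TATAAA, was in 16.5% of windows of higher genes, 12.03% of those of lower genes and 6.76% of those of all members, against 13.6% of the whole table.

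The matrix protease and cytokine windows are shown because they carry that site, in capitals, on either strand and at different distances from the start (RefSeq, GRCm38.p6, printed 5′ to 3′ along the gene). They are chr9:7272264-7272563 (plus) for Mmp13, chr9:7445572-7445871 (plus) for Mmp3, chr2:129309923-129310222 (minus) for Il1a, chr5:30012864-30013163 (plus) for Il6, chr11:4257318-4257617 (plus) for Lif and chr7:4778092-4778391 (minus) for Il11.
Mmp13: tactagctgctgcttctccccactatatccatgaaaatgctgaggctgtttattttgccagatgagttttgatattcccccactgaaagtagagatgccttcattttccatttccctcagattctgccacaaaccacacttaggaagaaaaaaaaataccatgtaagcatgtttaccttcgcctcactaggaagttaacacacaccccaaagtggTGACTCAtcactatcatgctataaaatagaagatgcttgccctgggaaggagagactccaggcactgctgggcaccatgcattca
Mmp3: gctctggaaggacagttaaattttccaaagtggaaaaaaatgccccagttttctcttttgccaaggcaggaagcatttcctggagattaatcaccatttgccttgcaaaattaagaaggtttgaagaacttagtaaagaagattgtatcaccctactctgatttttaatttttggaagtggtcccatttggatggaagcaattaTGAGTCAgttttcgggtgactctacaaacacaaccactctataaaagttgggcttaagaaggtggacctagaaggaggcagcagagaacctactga
Il1a: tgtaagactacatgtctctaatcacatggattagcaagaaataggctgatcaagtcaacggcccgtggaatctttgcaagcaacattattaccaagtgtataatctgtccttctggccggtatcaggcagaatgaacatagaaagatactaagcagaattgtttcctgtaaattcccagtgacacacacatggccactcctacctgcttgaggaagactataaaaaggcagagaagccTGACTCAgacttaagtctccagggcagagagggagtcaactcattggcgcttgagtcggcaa
Il6: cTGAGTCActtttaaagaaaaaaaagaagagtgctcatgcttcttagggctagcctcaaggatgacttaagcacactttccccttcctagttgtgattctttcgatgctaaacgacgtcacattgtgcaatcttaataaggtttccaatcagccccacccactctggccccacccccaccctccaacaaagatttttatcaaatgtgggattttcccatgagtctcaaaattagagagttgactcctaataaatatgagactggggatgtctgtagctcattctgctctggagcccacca
Lif: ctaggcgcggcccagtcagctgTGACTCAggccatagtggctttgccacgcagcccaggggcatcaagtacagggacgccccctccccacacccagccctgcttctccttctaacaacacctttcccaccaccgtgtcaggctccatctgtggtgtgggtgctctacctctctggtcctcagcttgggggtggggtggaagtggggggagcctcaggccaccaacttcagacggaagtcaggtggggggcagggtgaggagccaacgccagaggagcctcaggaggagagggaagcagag
Il11: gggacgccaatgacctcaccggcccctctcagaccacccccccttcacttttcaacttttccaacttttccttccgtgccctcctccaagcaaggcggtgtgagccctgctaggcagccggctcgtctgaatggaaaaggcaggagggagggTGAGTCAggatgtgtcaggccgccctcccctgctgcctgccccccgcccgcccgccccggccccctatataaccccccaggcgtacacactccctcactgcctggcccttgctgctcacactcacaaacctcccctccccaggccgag
Each has 1 match, nearest to the start in Il1a and at the far end of the window in Il6 and Lif. The letters say nothing of whether a factor was bound in these cells.

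Among higher genes that the METTL3 libraries barely expressed, 39 protein-coding genes carried an ordinary symbol, and those named here were chosen after their values were seen. Serpinb2, an inhibitor of plasminogen activators, was at 8.002 CPM in the control and 21.7 CPM in the knockdown, against 0.422 to 1.09 CPM in the METTL3 libraries. Serpinb9e, Serpinb9f and Serpinb9g, protease inhibitors in 1 cluster on chromosome 13, were at 1.74, 0.341 and 2.18 CPM and at 5.69, 1.82 and 7.24 CPM. Their transcripts are 94.6% to 97.5% identical to each other, so reads may have been divided among them. Akr1c18, an enzyme that inactivates progesterone, was at 11.4 and 24.7 CPM, and Lgr6, a receptor for R-spondins, at 11.9 and 25.1 CPM. Cd53 (2.18 and 6.52 CPM), Ccr1 (0.375 and 1.99 CPM) and Parvg (1.29 and 4.46 CPM) are genes known from blood cells, and the blood and macrophage markers Ptprc, Adgre1 and Tyrobp had 1 read at most in either library. Itgb2, a leukocyte integrin gene, went the other way at 3.81 and 1.44 CPM, and was within the METTL3 spread. Serpinb9f (10 and 53 reads), Ccr1 (11 and 58) and Parvg (38 and 130) met the minimum of 50 reads in the knockdown library only. For genes of this kind the minimum itself favours a higher ratio, as it favours a lower one for genes that met it in the control only.

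Noncoding hosts of small nucleolar RNAs were higher together. Of 10 measured genes on the list of nuclear lncRNAs and snoRNA hosts, 9 were above 1 in ratio, 5 by more than 1.5-fold and none by more than 2-fold. The median log2 ratio was 0.54, the highest of the lists with 5 or more measured members, beside -0.33 and -0.12 in the METTL3 pairs. Gas5, which hosts several snoRNAs, was at 58.5 CPM in the control and 93.9 CPM in the knockdown, Snhg15 at 9.47 and 15.6 CPM and Snhg12 at 17.2 and 27.4 CPM. Malat1, a lncRNA of nuclear speckles, was at 2109 and 2418 CPM, and Neat1, the scaffold of paraspeckles, at 127 and 107 CPM. The cytosolic ribosomal protein genes had a median of 0.03 over 57 genes.

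**Figure D5:**
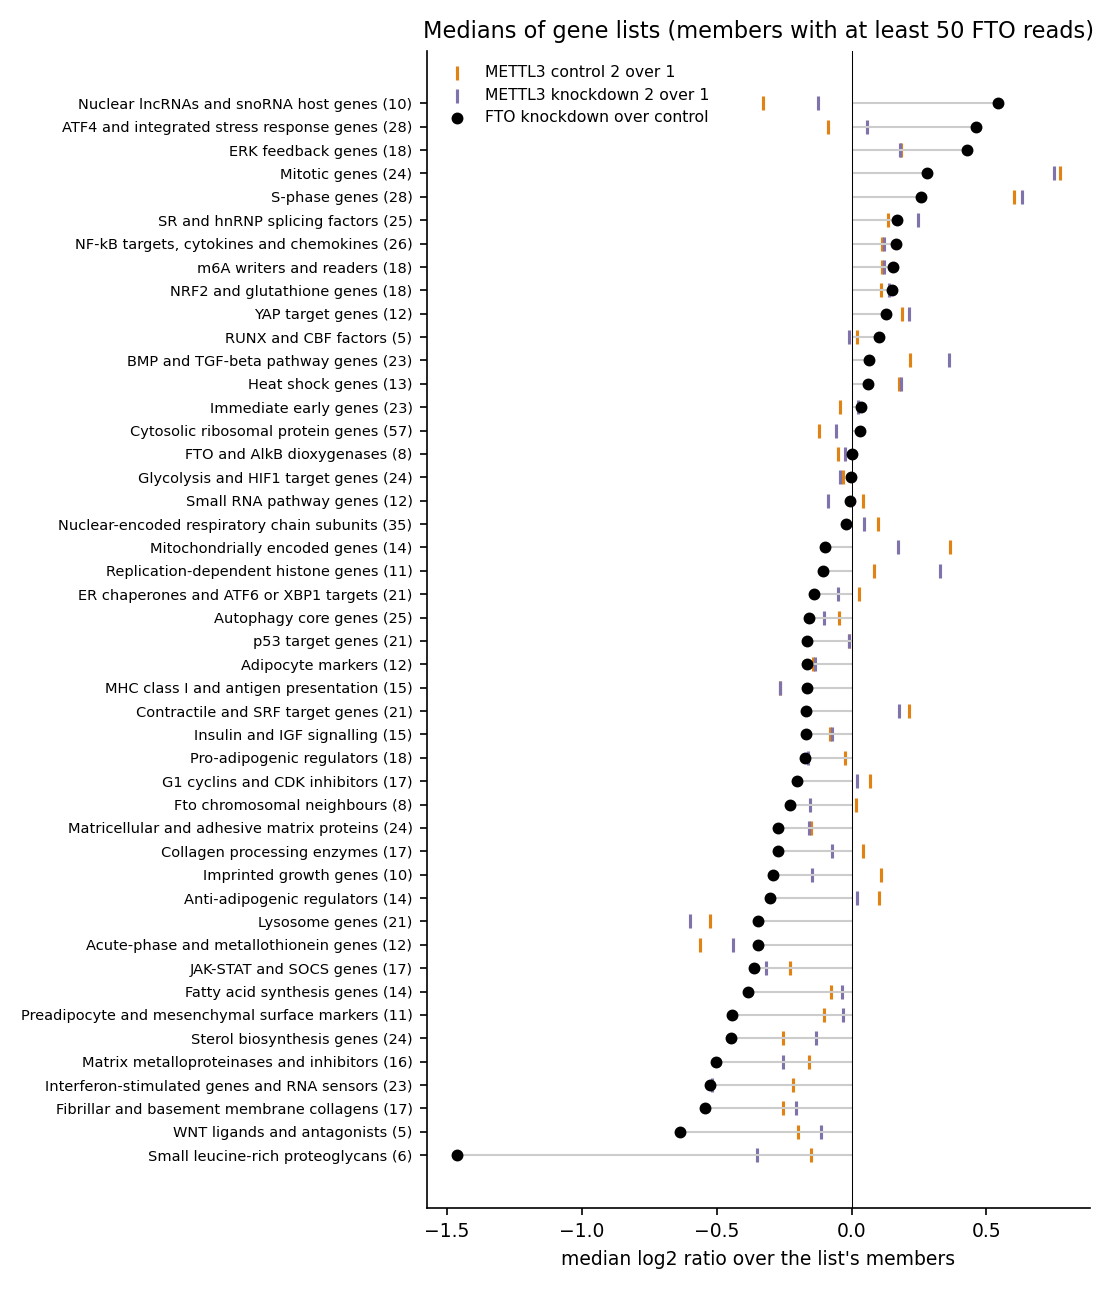
Median log2 ratio (horizontal axis) of each gene list with 5 or more members counted at least 50 times, number in brackets, for FTO knockdown over control (black) and between METTL3 libraries of 1 group (coloured ticks). Small leucine-rich proteoglycans are lowest at -1.46 and nuclear lncRNAs and snoRNA host genes highest at 0.54, and S-phase and mitotic genes differed more between METTL3 libraries than in FTO.

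Genes of RNA methylation and splicing stayed close to 1. No member of the 18 measured m6A writers and readers passed 1.5-fold, and the median log2 ratio was 0.16, beside 0.11 and 0.12 in the METTL3 pairs. Mettl3 was at 14.9 CPM in the control and 17.5 CPM in the knockdown, Mettl14 at 13.7 and 16.4 CPM, and Ythdf2, a reader that leads methylated transcripts to decay, at 58.2 and 78.6 CPM. Ythdc2 had the highest ratio, at 13.3 and 19.3 CPM, and Igf2bp3 the lowest, at 99.5 and 84.8 CPM. Of 25 SR and hnRNP splicing factors 22 were above 1 in ratio, none by 1.5-fold, with a median of 0.17 that the METTL3 knockdown pair exceeded at 0.24.

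Cell cycle genes were slightly higher. All 28 S-phase genes and 23 of 24 mitotic genes were above 1 in ratio, with median log2 ratios of 0.26 and 0.28. The METTL3 pairs had medians of 0.60 and 0.63 for the S-phase list and of 0.77 and 0.75 for the mitotic list, larger than those in FTO. Top2a, a topoisomerase of dividing cells, was at 245 CPM in the control and 349 CPM in the knockdown, and Mki67, a proliferation marker, at 398 and 465 CPM. The inhibitors Cdkn2a, at 234 and 150.3 CPM, and Cdkn1b, at 94.5 and 65.5 CPM, were lower, and Myc was at 115 and 167 CPM.

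Among cytokine signalling genes, Socs2, a feedback inhibitor of growth hormone signals, was at 3.00 CPM in the control and 7.06 CPM in the knockdown, against 10.7 to 20.6 CPM in the METTL3 libraries. The other 16 measured JAK-STAT and SOCS genes included Socs3 at 25.2 and 17.2 CPM, and the list's median was -0.36, beside -0.23 and -0.32 in the METTL3 pairs. In the mitochondrial genome mt-Atp8 was at 34.4 and 80.1 CPM while 12 of the other 13 measured genes stayed between -0.26 and 0.09 on the log2 scale, the exception being mt-Nd3 at 252 and 358 CPM. mt-Atp8 overlaps mt-Atp6 and was at 0.314 to 1.03 CPM in the METTL3 libraries. Lars2, the mitochondrial leucyl-tRNA synthetase, had the most reads of all genes that were past 1.5-fold and differed by more than in either METTL3 pair, at 3717 and 6086 CPM (1.64-fold higher), against 479 to 686 CPM in the METTL3 libraries. Per length of transcript, which allows genes to be compared, Lars2 stood at 736 RPKM in the control of FTO and 1244 RPKM in the knockdown, Ptn at 136 and 30.2 RPKM, and Fto at 9.01 and 2.95 RPKM.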

How the data were processed

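RNA of 3T3-L1 cells was sequenced in 6 libraries, of which the FTO control and the FTO knockdown are compared and the 4 METTL3 libraries give the spread within a group. The table deposited by the authors holds raw read counts per gene and RPKM values side by side, per the file headers. The submitters' processing notes name TopHat2 2.0.9, bedtools and the build mm10, without their roles. Whether strand, multiple alignments or both ends of a pair were counted is not given in the sources used here.

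All IDs were matched to GENCODE M21 (GRCm38) symbols for 35533 of 37315 entries. Entries with a symbol held by another entry, 12 in all, were not used by symbol. Counts were scaled to CPM with TMM factors over all 6 libraries (edgeR 4.0.16, R 4.3.3). Ratios are knockdown over control CPM with no pseudocount, and each has an exact conditional binomial 95% interval, while levels have exact Poisson intervals (scipy 1.17.1, Python 3.11.15). Intervals cover counting error only and are too narrow if both ends of a pair were counted. A count of 0 allows up to 3 reads, or 0.102 CPM in the control of FTO and 0.103 CPM in its knockdown. The calculations were tested on simulated data.

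Named genes were Fto, the 15 higher (of 26 eligible) and 15 lower (of 125) genes with the interval bound farthest past 1 among protein-coding genes and lncRNAs beyond the METTL3 spread, the 10 most-read genes past 1.5-fold and larger than that spread, and up to 4 members per list. Further members are named as examples, chosen after their values were seen. Members and lists were chosen with earlier results of these data known. Promoter windows are those of RefSeq (GRCm38.p6), matched by symbol for 8797 of 11338 members, and motifs were searched on both strands. Windows on chromosome 18 were not used, so the 292 members there are unmatched and shares of the whole table leave that chromosome out. Other scalings, RPKM, a pseudocount, other read minimums and halved counts were tried.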

Additional observations from a re-analysis of the deposited data

How the results depend on the processing

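No paired analysis was possible because each FTO group has 1 library, and for the same reason no library could be left out. With a pseudocount of 1 CPM, 39 genes were 2-fold higher and 88 lower. With a minimum of 20 reads the counts were 248 and 238, and with 200 reads 38 and 85, of which 80 lower genes were beyond the METTL3 spread. With no minimum they were 3233 and 2200, the whole interval was past 2-fold for 46 higher genes, and 43 higher genes were beyond the spread. More genes were thus higher than lower with 20 reads or no minimum, the opposite of the order with 50. The other 62 recomputed summary values were within 1.5 times or within their interval. No named gene changed sign. Medians of 5 lists did under some settings, 4 of them near 0 throughout, and the acute-phase list went from -0.35 to 0.03 with a minimum of 200 reads. The log2 ratio of Fto lay between -1.66 and -1.61. With the pseudocount the log2 ratio was -2.04 for Dpt, -1.26 for Depp1, -1.73 for Ppp1r3c and -1.35 for Hmcn1. The median of the small leucine-rich proteoglycans, from 6 genes, was -0.99 with the pseudocount and -0.96 with any other read minimum. The median of all members was -0.015 as reported and reached 0.0300 on the deposited RPKM values. Counts of weakly read genes therefore depend on the minimum set for them.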
